A study of Mus musculus with 2 samples.

Results

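The D cyclins, the kinases that they activate and the inhibitors of those kinases were read in single-cell RNA sequencing of jejunal crypts from mice that lack miR-375. The set held 10 genes of the 27998 in the matrices and was chosen by name: Ccnd1, Ccnd2, Ccnd3, Cdk4, Cdk6, Cdkn1a, Cdkn1b, Cdkn1c, Cdkn2b and Cdkn2d. Cells came from 2 male mice, both 12 months old and homozygous for a CRISPR/Cas9 deletion of the miR-375 locus in every tissue (375KO). The labels give the strain as C57BL6/2J, and per the methods the deletion was made in mixed FVB and B6 embryos and then backcrossed to B6 albino mice. Each mouse gave 1 library, called mouse 1 and mouse 2 here. Both mice carried the deletion, so no value below compares genotypes, and the matrices have no row for miR-375 itself.

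D-type cyclins bind CDK4 or CDK6 in the G1 phase of the cell cycle, and the active kinases phosphorylate the retinoblastoma protein, which releases E2F factors and lets the cell enter S phase. INK4 proteins, here encoded by Cdkn2b (p15) and Cdkn2d (p19), bind CDK4 and CDK6 directly, whereas the Cip and Kip proteins encoded by Cdkn1a (p21), Cdkn1b (p27) and Cdkn1c (p57) bind complexes of cyclins and CDKs more broadly. In the crypt, stem cells and transit-amplifying (TA) cells divide, and their progeny leave the cell cycle as they become absorptive enterocytes or secretory cells.

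The authors annotated 3275 cells as 10 types, with 2082 cells in mouse 1 and 1193 in mouse 2. Of these, 3207 were epithelial and 68 were intraepithelial lymphocytes (IEL). Smallest among the epithelial types were the secretory progenitors, with 31 and 19 cells, and the hormone-producing enteroendocrine cells (EEC), with 54 and 20. The kept cells held 44017234 UMIs in mouse 1 and 22163354 in mouse 2. A UMI (unique molecular identifier) stands for 1 captured RNA molecule, counted at its 3′ end, so levels were not divided by gene length. No cell barcode was shared between the kept cells of both libraries. Of 50 markers, 45 were highest in their own type in both mice; the exceptions were the stem marker Ascl2, highest in tuft cells, and 4 TA markers (Pcna, Mcm5, Mcm6 and Stmn1). Levels are given as UMIs per 1000000 UMIs of that type and mouse (CPM). In Paneth cells 10 genes took 82.6% and 81.9% of all UMIs, which lowers the CPM of every other gene there. The tests used totals scaled by the TMM method, with factors from 0.121 to 1.59. Paneth levels of several genes, and some goblet levels, are therefore also given on that scale.

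The comparisons ask how each gene differs between dividing and mature cells. In each, UMI sums per mouse and type were tested with edgeR, with adjusted p-values over all genes and a threshold of 0.05. Since the annotation was itself built on gene expression in these cells, each test describes how the annotated types stand apart. Stem and TA cells together (progenitors) differed from the mean of the 5 mature types in 8 of the 10 genes. The D cyclins Ccnd1 and Ccnd2 and the kinases Cdk4 and Cdk6 were higher in progenitors, and Ccnd3, Cdkn1a, Cdkn1c and Cdkn2b were lower. For Cdkn2b this did not hold type by type, since TA cells lay above EEC, tuft and Paneth cells in both mice. Cdkn1c passed the filter on low counts through EEC, secretory progenitors and tuft cells. Its call thus reflects the level in EEC and is no support for a difference of the set. In that comparison 45.4% of the 11013 genes tested passed, 24.4% of them as higher and 21.0% as lower. Once every cell was thinned to 5000 UMIs, 5 of the 10 passed, and Ccnd3 (log2 fold change -0.46), Cdkn2b (-0.89) and Cdkn1c (-1.91) did not. The median log2 fold change was -0.05 over the 10 genes and 0.01 over all genes.

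Stem cells differed from TA cells in 3 of the 10 genes, against 4.83% of all genes. TA cells differed from enterocytes in 6 of the 10, against 51.7% of all genes, and goblet progenitors differed from goblet cells in 4 of the 10, against 29.1%. With each epithelial type set against the mean of the other 8, 37 of the 90 pairs of gene and type passed, against 24.8% of such pairs over all genes. P-values were adjusted within each comparison.

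**Figure D1:**
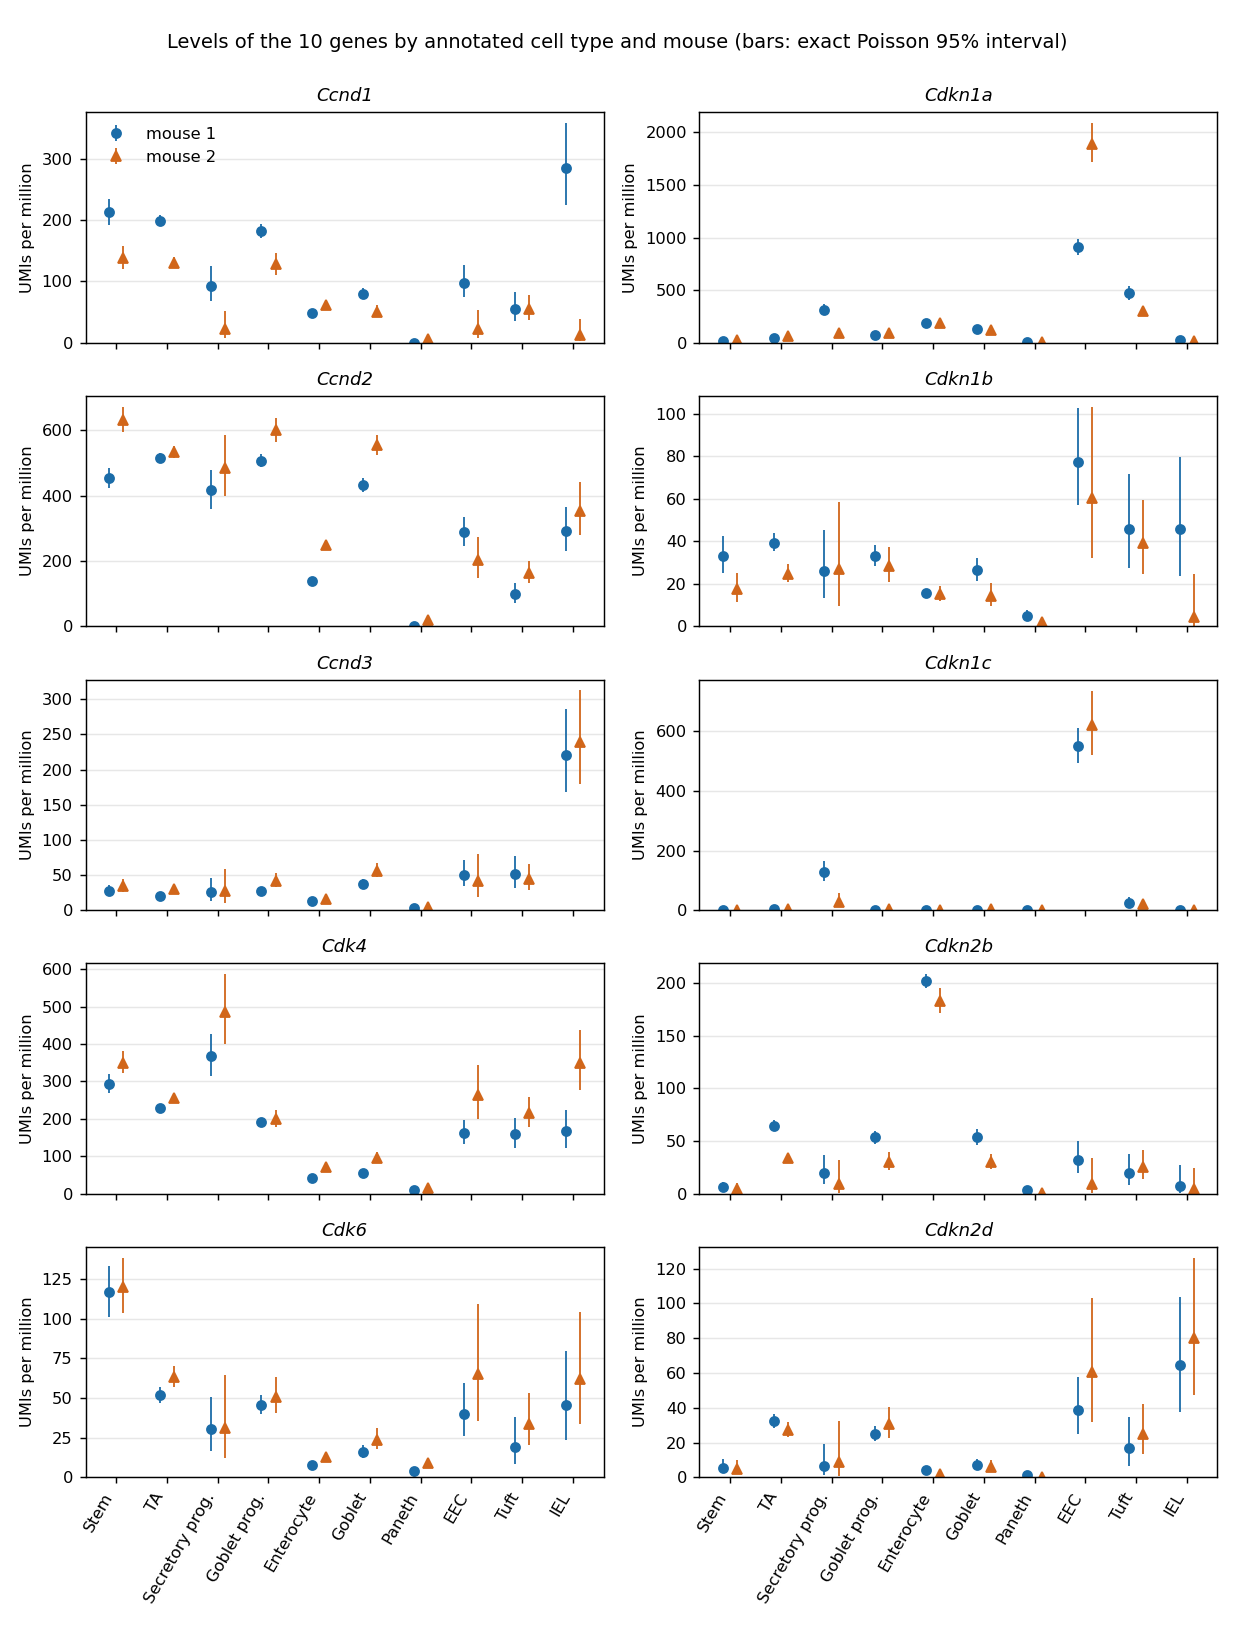
CPM (vertical axis, linear from 0, its own scale in each panel) of the 10 genes in each annotated cell type (horizontal axis), with blue circles for mouse 1, orange triangles for mouse 2 and bars for exact Poisson 95% intervals, which cover counting error only. Cdkn1c and Cdkn1a were highest in EEC, Cdkn2b in enterocytes, Cdk6 in stem cells and Ccnd3 in IEL in both mice.

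Of the D cyclins, Ccnd2 had the most UMIs, 20800 in all, followed by Ccnd1 with 6173 and Ccnd3 with 1523. Ccnd1, Ccnd2 and Ccnd3 lie on mm10 chromosomes 7 (144929931 to 144939925, minus strand), 6 (127125162 to 127152193, minus strand) and 17 (47505051 to 47599691, plus strand).

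The Ccnd2 level was 454 CPM in mouse 1 and 632 in mouse 2 in stem cells, 517 and 533 in TA cells, 417 and 486 in secretory progenitors, and 508 and 600.5 in goblet progenitors. Goblet cells held nearly as much by CPM, at 434 and 555. Enterocytes were lower at 140 and 251 CPM, EEC stood at 288 and 204, and tuft cells at 99.1 and 164. Stem and TA cells, secretory and goblet progenitors, and goblet cells thus lay above enterocytes, EEC and tuft cells in both mice. In the fit, Ccnd2 was higher in progenitors than in mature types by 1.35 ± 0.33 (log2 fold change ± SE, edgeR adjusted p = 0.0103, higher in both mice).

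Paneth cells stood apart from the other types for Ccnd2. They held 1 UMI in mouse 1 and 82 UMIs in mouse 2, or 0.284 and 18.8 CPM. Scaled levels of Paneth cells were 1.83 and 155 CPM. Summed stem markers in Paneth cells came to 51.2 and 52.9 CPM in the mice, TA markers to 5.12 and 25.7 CPM, and IEL markers to 1.42 and 96.3 CPM; whether other cells among them have a part in the Ccnd2 difference was not tested. With this pair in the fit, the SE of Ccnd2 in TA cells against enterocytes was 0.55, and the log2 fold change of 1.09 did not pass (adjusted p = 0.135). Without Paneth cells it was 1.13 and passed (adjusted p = 5.23e-06).

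Goblet cells exceeded the other 8 types in Ccnd2 by 1.24 ± 0.38 on the log2 scale (edgeR adjusted p = 0.0424). That call did not hold with DESeq2, where the value was 1.25 and the adjusted p = 0.171. In edgeR it was also lost with at most 10% mitochondrial UMIs (1.17, adjusted p = 0.0627) and without the mouse block (1.23, adjusted p = 0.2). Goblet progenitors and goblet cells did not differ in Ccnd2 past the threshold, with a log2 fold change of -0.32 ± 0.55. By CPM goblet progenitors had more Ccnd2 than goblet cells in both mice, but the scaled levels that the tests used ran the other way. Scaled levels were 437 and 584 CPM in goblet cells, the highest of the epithelial types, and 351 and 468 in goblet progenitors. The TMM factors were 0.994 and 0.952 in goblet cells and 1.45 and 1.285 in goblet progenitors.

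Ccnd1, a classic target of Wnt signalling in the crypt, was highest within the epithelium in stem cells, at 212 CPM in mouse 1 and 138 in mouse 2. TA cells followed with 199 and 131 CPM and goblet progenitors with 182 and 128. The level was 48.4 and 61.0 CPM in enterocytes, 79.8 and 51.0 in goblet cells, and 55.6 and 55.4 in tuft cells. These 3 mature types lay below stem cells, TA cells and goblet progenitors in both mice. Secretory progenitors had 93.4 and 22.3 CPM and EEC 98.3 and 23.2. Both lay above the 3 mature types in mouse 1 and below them in mouse 2. Progenitors exceeded mature types by 1.54 ± 0.32 (log2 fold change, edgeR adjusted p = 0.0035). Mouse 1 lay above mouse 2 in Ccnd1 in stem cells, TA cells, both kinds of progenitors, goblet cells and EEC, and below it in enterocytes and Paneth cells. Paneth cells held 1 UMI of Ccnd1 in mouse 1 and 26 in mouse 2. TA cells against enterocytes gave 1.17 ± 0.46 for Ccnd1 (adjusted p = 0.0619), and 1.21 without Paneth cells (adjusted p = 3.83e-04). For goblet progenitors against goblet cells the values were 0.75 (adjusted p = 0.305) and, without Paneth cells, 0.73 (adjusted p = 0.0378).

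Ccnd3 was lower, not higher, in progenitors than in the mean of the mature types. Its level was 27.5 and 33.7 CPM in stem cells and 20.5 and 29.9 in TA cells. Goblet cells had 37.0 and 56.3 CPM, EEC 49.9 and 41.8, tuft cells 50.8 and 44.6, and enterocytes 13.4 and 16.3. Scaled Paneth levels of Ccnd3 were 23.8 and 41.7 CPM, against 20.8 and 27.9 in stem cells. Progenitors were lower than mature types by a log2 fold change of -0.51 ± 0.15 (edgeR adjusted p = 0.00545), although enterocytes, a mature type, had less than stem or TA cells. Goblet progenitors were lower than goblet cells by -0.96 ± 0.21 on the log2 scale (adjusted p = 6.2e-04), a call lost on thinning (-0.74, adjusted p = 0.0748), and goblet cells exceeded the other 8 types by 0.98 ± 0.16 (adjusted p = 1.1e-05).

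The mix of D cyclin UMIs is given as a description, with no test. Ccnd2 took 65.4% of the D cyclin UMIs of stem cells in mouse 1 (exact 95% binomial interval 62.7 to 68.1%) and 78.7% in mouse 2 (76.3 to 80.9%). In TA cells its share was 70.2% and 76.9%, in enterocytes 69.4% and 76.5%, and in goblet cells 78.8% and 83.8%. So the Ccnd2 share of enterocytes lay close to that of TA cells in each mouse, although both the Ccnd1 and the Ccnd2 level were lower in enterocytes. Tuft cells gave Ccnd3 24.7% and 16.9% of their D cyclin UMIs, and EEC 11.4% and 15.5%, against 2.78% and 4.31% in TA cells. In mouse 1, Paneth cells had only 15 D cyclin UMIs, 13 of them from Ccnd3, so their mix is poorly known. The IEL mixes of the mice were far apart, with Ccnd1 at 35.7% and 2.19%, Ccnd2 at 36.7% and 58.4%, and Ccnd3 at 27.6% and 39.4%. In these mixes the mice differed in 1 direction: the Ccnd1 share was larger in mouse 1 in every epithelial type but Paneth cells.

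**Figure D2:**
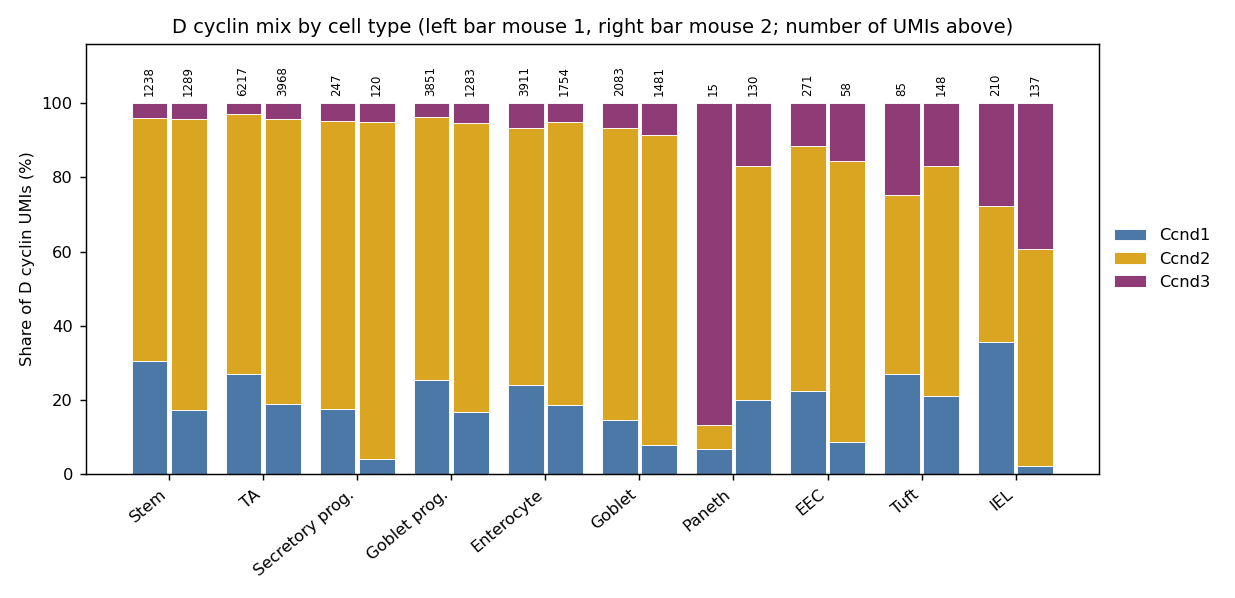
Share of D cyclin UMIs (percent, vertical axis) taken by Ccnd1 (blue), Ccnd2 (yellow) and Ccnd3 (purple) in each annotated cell type, with mouse 1 in the left bar, mouse 2 in the right bar and the number of D cyclin UMIs above each. Ccnd2 has the largest share in every epithelial bar but that of Paneth cells in mouse 1, which rests on 15 UMIs.

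IEL were the one type in which Ccnd3, which has known roles in lymphocyte development, was abundant. Its level was 221 CPM in mouse 1 and 240 in mouse 2, on 58 and 54 UMIs, more than in any epithelial type of either mouse. Compared with the mean of the 9 epithelial types, 4 of the 10 genes passed in IEL, against 30.0% of 11402 genes. Ccnd3 was higher by 2.69 ± 0.21 on the log2 scale (edgeR adjusted p = 1.1e-12), and Cdkn2d was higher by 2.48 ± 0.37 (adjusted p = 1.6e-06). Cdkn1a and Cdkn2b were lower, by -2.77 ± 0.82 (adjusted p = 0.0286) and -2.36 ± 0.66 (adjusted p = 0.00538). These rest on 8 and 3 IEL UMIs of Cdkn1a and on 2 and 1 of Cdkn2b. On thinning, Cdkn2b in IEL was -1.01 (adjusted p = 0.571) and Cdkn2d 2.28 (adjusted p = 0.0624), so neither was called. Ccnd1 in IEL was 286 CPM in mouse 1 and 13.3 CPM in mouse 2, and the fit gave 0.78 ± 0.70 (adjusted p = 0.475). All 75 Ccnd1 UMIs of mouse 1 and all 3 of mouse 2 were in the authors' IEL cluster 14 (22 and 13 cells), and IEL cluster 11 (28 and 5 cells) had 0. Beside it, the summed Paneth markers in IEL were 3454 and 13.3 CPM, the goblet markers 910 and 4.44 CPM, and the enterocyte markers 621 CPM and 0; their part in the Ccnd1 value was not tested. Cdkn1c had 0 UMIs in IEL of both mice, which allows up to 11.4 and 13.3 CPM at 3 counts.

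Cdk4 and Cdk6 encode the kinase partners of the D cyclins. Cdk4 lies on chromosome 10 (127063534 to 127067920, plus strand) and Cdk6 on chromosome 5 (3341485 to 3531008, plus strand) of mm10. Promoter sequences, from 250 bases before to 50 bases after the start, came from RefSeq (GRCm38.p6) for 7 of the 10 genes. They were searched on both strands for the E-box letters CACGTG, the site read by Myc and related factors. Of these 7 genes, Cdk4 and Cdk6 matched, against 8.09% of all genes with a promoter sequence. The Cdk4 promoter held the letters 4 times and the Cdk6 promoter once. RefSeq starts can differ from those of the printed gene spans, and the Cdk6 match lies inside the printed Cdk6 span. No promoter sequence was at hand for Ccnd1, Ccnd2 or Cdkn1c. Whether the letters have a part in the levels given next was not tested. The windows of both kinases follow. They are written 5′ to 3′ on the gene's strand, with the E-box in capitals.
Cdk4, chr10:127063353-127063378: ggcagccagtCACGTGccacacagcg
Cdk4, chr10:127063407-127063432: gtcaaggggtCACGTGggatagcaac
Cdk4, chr10:127063427-127063452: agcaacaggtCACGTGgccgtcaggg
Cdk4, chr10:127063514-127063539: gggtgaagatCACGTGtccagaacgt
Cdk6, chr5:3343663-3343688: tctgcggcccCACGTGggtgaacccc
A match is a run of letters and not a measured binding site. The E2F spellings TTTCGCGC, TTTGGCGC, TTTCCCGC and TTTGCCGC were in none of the 7 genes' promoters and in 2.60% of all genes with a promoter.

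Cdk4 was highest in secretory progenitors, with 367 CPM in mouse 1 and 486 in mouse 2. Stem cells had 294 and 350 CPM, TA cells 230 and 256, and goblet progenitors 191 and 200. The lowest levels outside Paneth cells were in enterocytes, at 42.1 and 71.0 CPM, and goblet cells, at 55.8 and 96.6. On the scaled level Paneth cells, at 67.6 and 129 CPM, lay above enterocytes (41.7 and 66.2) and goblet cells (56.2 and 102) in both mice. EEC kept 163 and 265 CPM and tuft cells 160 and 216, so these 2 mature types lay near goblet progenitors. Progenitors exceeded mature types by 1.21 ± 0.10 (log2, edgeR adjusted p = 2.9e-11). The value for TA cells against enterocytes was 1.75 ± 0.17 (adjusted p = 2.2e-10) and that for goblet progenitors against goblet cells 0.94 ± 0.17 (adjusted p = 9.4e-05). Secretory progenitors exceeded the other 8 types by 1.39 ± 0.14 (adjusted p = 2.7e-08). Stem cells were above TA cells in both mice, yet the difference of 0.53 ± 0.16 did not pass (adjusted p = 0.0557), and it passed without Paneth cells (0.54, adjusted p = 0.0309).

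Cdk6 was more narrowly placed. Stem cells had 117 CPM in mouse 1 and 120 in mouse 2, more than any other type in either mouse. TA cells had 51.9 and 63.5 CPM, goblet progenitors 45.6 and 51.0, EEC 40.3 and 65.0, goblet cells 15.9 and 23.7, and enterocytes 8.11 and 12.7. Cdk6 was the gene of the set that was higher in stem than in TA cells past the threshold, by 1.18 ± 0.19 on the log2 scale (edgeR adjusted p = 9.4e-05, 2.26-fold). TA cells in turn exceeded enterocytes by 2.10 ± 0.20 (adjusted p = 3.5e-10), and goblet progenitors exceeded goblet cells by 0.84 ± 0.23 (adjusted p = 0.0052), which was not called on thinning (0.93, adjusted p = 0.0624). In EEC of mouse 2, 1 cell held 7 of the 14 Cdk6 UMIs, and the level without that cell was 35.5 CPM. Paneth cells passed against the other 8 types with 0.80 ± 0.25 (adjusted p = 0.015), but mouse 1 alone gave -0.02 and mouse 2 alone 1.07. Scaled Paneth levels of Cdk6 were 25.6 and 75.8 CPM.

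Among the Cip and Kip inhibitors, Cdkn1a and Cdkn1c were both highest in EEC. Cdkn1a (p21, chromosome 17, 29090976 to 29100727, plus strand) is a target of p53 and of several differentiation signals. Its level was 910 CPM in EEC of mouse 1 and 1894 in mouse 2. Tuft cells, chemosensory cells of the epithelium, had 472 and 302 CPM. Enterocytes stood at 184 and 187 and goblet cells at 129 and 125, TA cells at 48.5 and 63.8, stem cells at 19.6 and 28.7, and IEL at 30.5 and 13.3. EEC and tuft cells were above all other types in mouse 1 and mouse 2 alike. In EEC of mouse 2, 1 cell held 117 of the 408 UMIs, and 1411 CPM remained without it.

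In the fit, Cdkn1a was lower in progenitors than in mature types by -2.87 ± 0.37 on the log2 scale (edgeR adjusted p = 2.2e-04, 7.30-fold). EEC exceeded the other 8 types by 3.41 ± 0.32 (adjusted p = 6.7e-05). For tuft cells the value was 1.39 ± 0.38 (adjusted p = 0.0389), a call that was lost without Paneth cells (1.29, adjusted p = 0.0598). TA cells were below enterocytes by -2.14 ± 0.49 (adjusted p = 0.00553). Stem cells had less Cdkn1a than TA cells in each mouse, with -1.09 ± 0.60 in the fit (adjusted p = 0.419). In secretory progenitors the mice were far apart, at 311 CPM in mouse 1 and 89.3 in mouse 2.

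Cdkn1c (p57, chromosome 7, 143458339 to 143461050, minus strand), an imprinted gene and an inhibitor tied to cell cycle exit, was the most restricted of the 10 genes. EEC had 549 CPM in mouse 1 and 622 in mouse 2, on 341 and 134 UMIs. Secretory progenitors had 128 and 26.8 CPM and tuft cells 24.2 and 21.4. Every other epithelial type lay at or below 3.60 CPM in both mice, with 0 and 2 UMIs in stem cells. On the scaled level Paneth cells of mouse 2 were at 7.58 CPM, on 4 UMIs. At least 1 Cdkn1c UMI was found in 63.0% of EEC of mouse 1 and 65.0% of EEC of mouse 2, at median depths of 7400 and 9390 UMIs. In enterocytes, with deeper medians of 16975 and 13405 UMIs, the share was 2.26% and 1.57%. After thinning each cell to 5000 UMIs the EEC shares were 56.6% and 55.0% and the enterocyte shares 0.645% and 0.785%. Cdkn1c passed the filter on low counts through EEC, secretory progenitors and tuft cells, so a difference elsewhere partly follows from that filter.

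EEC exceeded the other 8 types in Cdkn1c by 6.95 ± 0.34 on the log2 scale (edgeR adjusted p = 4.9e-08). Since Cdkn1c passed the filter through EEC, secretory progenitors and tuft cells, this value and the next restate levels and are no further support. For secretory progenitors the value was 4.12 ± 0.59 (adjusted p = 0.00236). In mouse 1, 1 secretory progenitor cell held 46 of the 59 Cdkn1c UMIs, along with 30 of the 143 Cdkn1a UMIs and 11 UMIs of EEC markers. Without that cell the level in mouse 1 was 30.1 CPM, close to the 26.8 of mouse 2, and the log2 fold change was 2.49 (adjusted p = 0.00817).

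Cdkn1b (p27, chromosome 6, 134920401 to 134925513, plus strand) was not called between progenitors and mature types (-0.23 ± 0.15, edgeR adjusted p = 0.221). EEC had the highest level, with 77.3 CPM in mouse 1 and 60.3 in mouse 2, while enterocytes had 15.6 and 15.1 and goblet cells 26.4 and 14.3. Stem cells had 33.1 and 17.5 CPM and TA cells 39.5 and 24.8. EEC exceeded the other 8 types by 1.07 ± 0.24 (log2, edgeR adjusted p = 0.00129), and TA cells exceeded enterocytes by 0.66 ± 0.19 (adjusted p = 0.00513).

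The INK4 inhibitors marked different cells. Cdkn2b (p15, chromosome 4, 89306299 to 89311039, minus strand), a known target of TGF-beta signalling, was a gene of enterocytes, with 202 CPM in mouse 1 and 183 in mouse 2. TA cells had 64.3 and 33.8 CPM, goblet progenitors 53.4 and 30.0, goblet cells 53.4 and 30.0, and stem cells 6.17 and 4.99. At least 1 UMI was seen in 92.5% and 83.8% of enterocytes and in 7.19% and 6.84% of stem cells. Enterocytes exceeded the other 8 types by 3.46 ± 0.14 (log2, edgeR adjusted p = 1.7e-19). Both steps of the absorptive path passed: stem cells were below TA cells by -2.99 ± 0.32 (adjusted p = 1.9e-07, 7.92-fold), and TA cells were below enterocytes by -2.44 ± 0.19 (adjusted p = 4.8e-12). Goblet progenitors and goblet cells gave -0.49 ± 0.22 (adjusted p = 0.0949), although their CPM were alike. That value arises with the scaling: scaled levels were 36.9 and 23.4 CPM in goblet progenitors and 53.8 and 31.5 in goblet cells. Cdkn2a, which lies 11645 bases from Cdkn2b, was among the 25 other G1 to S genes and did not pass the filter on low counts.

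Cdkn2d (p19, chromosome 9, 21288410 to 21291407, minus strand) peaked in 2 unlike kinds of cell. In the epithelium EEC had 38.7 CPM in mouse 1 and 60.3 in mouse 2, TA cells 32.3 and 27.3, and goblet progenitors 25.1 and 30.6. Stem cells had 5.61 and 4.99 CPM, goblet cells 7.40 and 5.81, and enterocytes 4.34 and 2.24. The dividing TA cells and goblet progenitors thus lay above the stem cells and above their mature partners in both mice. Stem cells were below TA cells with a log2 fold change of -2.36 ± 0.36 (edgeR adjusted p = 4.5e-05), or -1.30 and not called on thinning (adjusted p = 0.126), and TA cells exceeded enterocytes by 2.58 ± 0.26 (adjusted p = 7.7e-10). Goblet progenitors exceeded goblet cells by 1.50 ± 0.32 (adjusted p = 5.3e-04). EEC exceeded the other 8 types by 1.88 ± 0.36 (adjusted p = 1.5e-04). With this double pattern, progenitors against mature types gave 0.13 ± 0.28 (adjusted p = 0.765). Summed IEL markers in EEC were 3.22 CPM in mouse 1 and 1281 in mouse 2, and Cdkn2d in IEL was 64.7 and 79.9 CPM. Whether lymphocyte RNA has a part in the EEC level of Cdkn2d was not tested.

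**Figure D3:**
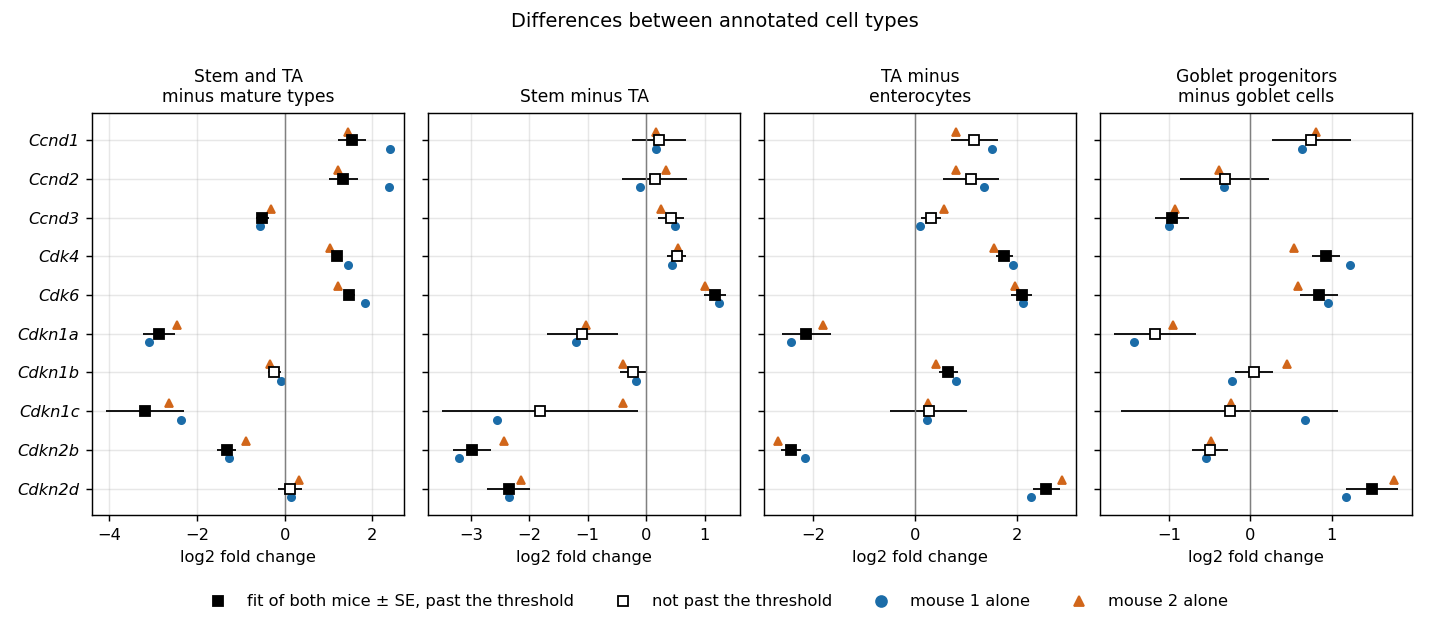
Log2 fold changes (horizontal axis) of the 10 genes in 4 comparisons of annotated types, with black squares for the fit of both mice and bars for ± 1 SE (filled where past the adjusted threshold of 0.05, open where not), blue circles for mouse 1 alone and orange triangles for mouse 2 alone. Cdk4 and Cdk6 lie to the right of 0 in all 4 panels, while Cdkn2b lies to the left in all 4 and Cdkn2d changes side between stem minus TA (-2.36) and TA minus enterocytes (2.58).

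Of the 9 types, EEC were the type in which 3 inhibitors of the Cip and Kip family and Cdkn2d passed as higher, with none of the 10 genes lower. Cdkn1c passed the filter on low counts through EEC, secretory progenitors and tuft cells. Its calls in any type restate those levels and are no support for a difference of the set. Of all genes 21.6% passed in EEC, 13.5% as higher and 8.12% as lower. In enterocytes 1 gene, Cdkn2b, passed as higher and 6 as lower (Ccnd3, Cdk4, Cdk6, Cdkn1b, Cdkn1c and Cdkn2d), against 31.3% of all genes as higher and 23.2% as lower, or 54.5% in all. On thinning, Cdkn1b (-0.53), Cdkn1c (-1.67) and Cdkn2d (-1.29) of these were no longer called. Stem cells were higher in 3 genes (Ccnd1, Cdk4 and Cdk6) and lower in 4 (Cdkn1a, Cdkn1c, Cdkn2b and Cdkn2d), against 15.4% of all genes as higher and 10.1% as lower, or 25.6% in all. Cdkn2d in stem cells gave -1.27 ± 0.39 there and 0.14 once every cell was thinned to 5000 UMIs. Ccnd1 in stem cells was not called by DESeq2 (1.32, adjusted p = 0.145), and Cdkn1c, on 0 and 2 UMIs, was not called on thinning or with at most 10% mitochondrial UMIs. TA cells were higher in 5, which included Cdkn2b at 0.71 ± 0.17 and Cdkn2d at 1.38 ± 0.20, and lower in Ccnd3 and Cdkn1a, against 19.2% of all genes as higher and 13.6% as lower, or 32.8% in all. Of these, Ccnd1 was not called by DESeq2 (1.07, adjusted p = 0.237), and Ccnd3 was not called on thinning (-0.60, adjusted p = 0.0724). Goblet cells differed in 5 of the 10 genes, against 29.2% of all genes, Paneth cells in 3, against 27.0%, and secretory progenitors in 2, against 4.78%. In goblet progenitors Cdkn2d alone passed, at 1.23 ± 0.23, against 12.1% of all genes, and in tuft cells Cdkn1a alone, against 16.0%.

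The authors split TA cells into 4 clusters and enterocytes into 5, and the genes changed at different points among them. These clusters come from the same cells' expression, so their levels are a description with no test. The stem cluster (4) came first, and within TA cells and enterocytes the clusters were ordered by the summed level of 6 enterocyte markers. TA cluster 13 had the most stem marker UMIs of the TA clusters, at 1162 CPM in mouse 1 and 665 in mouse 2. Cdk6 in that cluster was 118 and 150 CPM, like the 117 and 120 of stem cells, and Cdkn2b had 0 UMIs in both mice. In TA cluster 8, the one with the highest enterocyte marker level, Cdk6 was 19.6 and 22.0 CPM and Cdkn2b 130 and 68.7 CPM.

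Ccnd1 and Ccnd2 stayed high into the enterocyte annotation. Enterocyte cluster 2, with the lowest enterocyte marker level of the 5, had 191 and 149 CPM of Ccnd1, against 211 and 142 in TA cluster 8. Its Ccnd2 level was 453 and 519 CPM, against 436 and 466. By contrast, its Cdk4 level was 95.2 and 140 CPM, about the 137 and 124 of TA cluster 8 and below the 336 and 383 of TA cluster 10. Enterocyte clusters 6 and 9 had 38.1 and 49.4 CPM, and 56.0 and 39.5 CPM, of Ccnd1. In enterocyte clusters 3 and 1, with the highest marker levels, Ccnd1 came to 6 and 3 UMIs in cluster 3 and to 3 and 0 UMIs in cluster 1. So the mean Ccnd1 level of enterocytes joins a cluster at the level of TA cells with clusters near 0.

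The inhibitors changed in other places. Cdkn1a was 94.3 and 87.1 CPM in enterocyte cluster 2, beside the 57.7 and 86.5 of TA cluster 8, and was 223 and 262 CPM in enterocyte cluster 1. Cdkn2b was 170 and 118 CPM in enterocyte cluster 2, reached 287 and 238 in cluster 9 and was 151 and 179 in cluster 1, so it was not highest where the enterocyte markers were highest. Cdkn2d was highest in TA cluster 5, at 48.9 and 50.6 CPM, and at or below 6.77 CPM in all 5 enterocyte clusters.

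**Figure D4:**
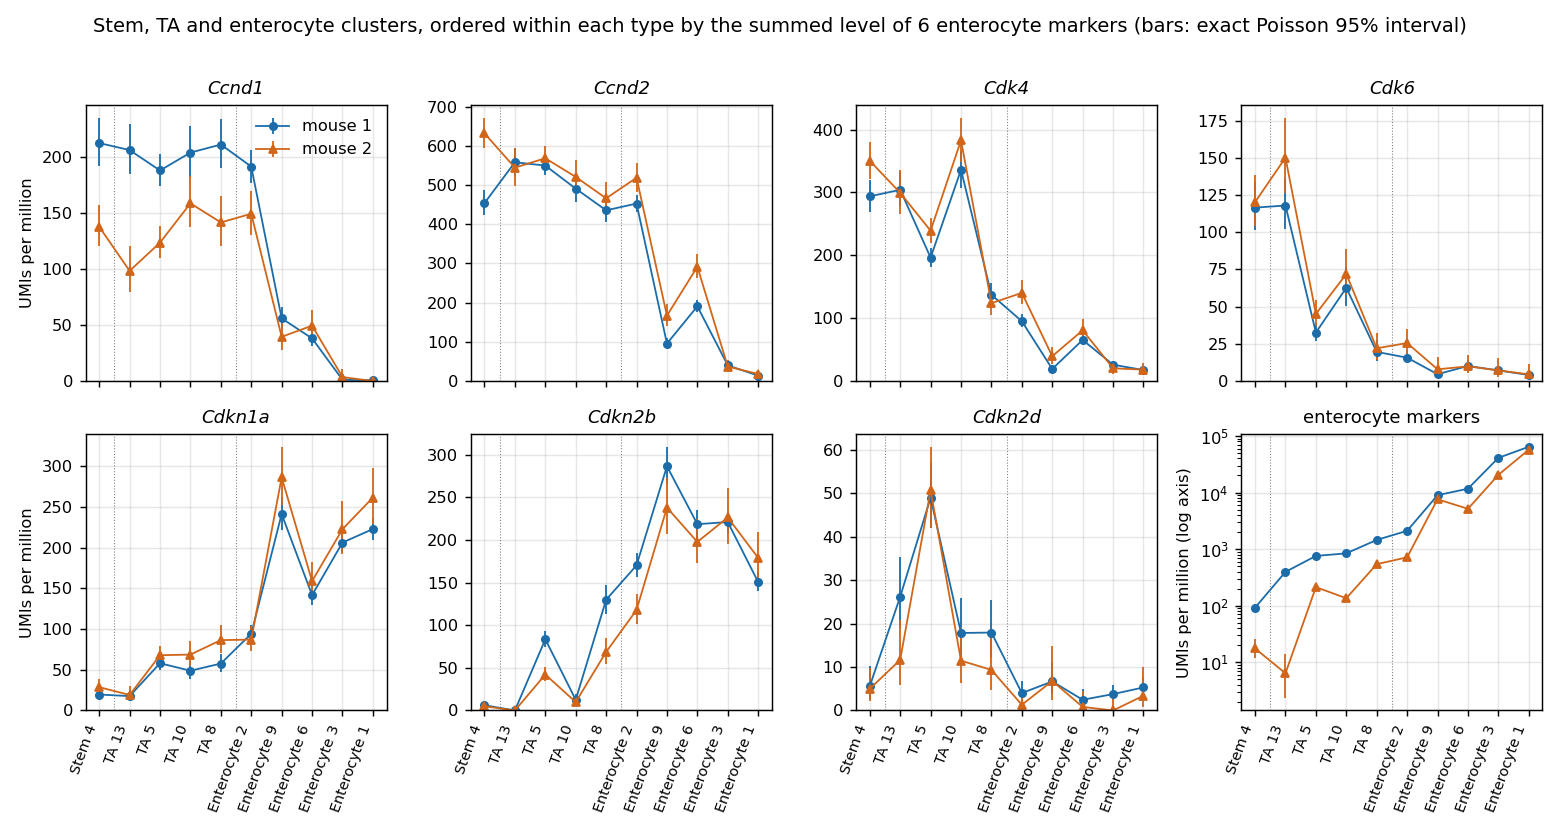
CPM (vertical axis, linear from 0 in the gene panels, log for the summed enterocyte markers) in the stem cluster, 4 TA clusters and 5 enterocyte clusters (horizontal axis, ordered within each type by the enterocyte marker level), with blue circles for mouse 1, orange triangles for mouse 2 and bars for exact Poisson 95% intervals. Ccnd1 and Ccnd2 stay at TA levels in enterocyte cluster 2 and drop after it, while Cdk6 is already low in TA cluster 8.

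Cells were then classed by the cell cycle within a type. Phase calls were not used here, and each cell was classed from its share of UMIs in 34 S phase genes and 45 genes of G2 and mitosis, set against the 95th percentile of enterocytes of the same mouse. None of the 10 genes is in those lists. Only 0 and 2 TA cells and 9 and 17 stem cells fell below both thresholds, so the planned comparison of cycling with G1 cells could not be made. In its place, chosen after the data were seen, S and G2M cells were compared within TA cells (87 and 101 S cells, 233 and 220 G2M cells) and goblet progenitors (56 and 25, 86 and 44). Of the TA cells, 43 in mouse 1 and 41 in mouse 2 lay within a ratio of 1.25 of the line between the classes.

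Of the 9 genes tested, 6 passed, against 13.4% of 9747 genes, and 2 (Cdk4 and Cdkn2b) passed after thinning to 5000 UMIs per cell. Cdk4 in TA cells was 319 CPM in S and 196 in G2M in mouse 1, and 339 and 220 in mouse 2. It was higher in S cells by 0.63 ± 0.08 (log2, edgeR adjusted p = 1.1e-07), Cdk6 by 0.67 ± 0.11 (adjusted p = 2.2e-05) and Ccnd3 by 0.62 ± 0.15 (adjusted p = 0.00289). Ccnd1 passed with 0.25 ± 0.08 (adjusted p = 0.0437), which DESeq2 did not call (0.24, adjusted p = 0.254). Ccnd3 was not called by DESeq2 either (0.60, adjusted p = 0.0854) and was 0.23 on thinning, and Ccnd2 gave 0.04 ± 0.06 (adjusted p = 0.778).

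The INK4 genes ran opposite to the kinases. Cdkn2d in TA cells was 18.5 CPM in S and 37.6 in G2M in mouse 1, and 15.1 and 33.1 in mouse 2, and the fit over both types gave -0.98 ± 0.17 (edgeR adjusted p = 2.2e-05). Cdkn2b in TA cells was 11.6 and 84.4 CPM in mouse 1 and 14.0 and 42.4 in mouse 2, with -2.01 ± 0.31 in the fit (adjusted p = 0.00589). In goblet progenitors Cdkn2b was 11.8 and 59.4 CPM in mouse 1 but 27.4 and 30.1 in mouse 2, whose intervals overlap. Beside this, stem markers in TA cells were 504 CPM in S and 301 in G2M in mouse 1, and 294 and 229 in mouse 2. Enterocyte markers in TA cells were 584 and 947 CPM in mouse 1, and 177 and 255 in mouse 2. Of TA S cells, 71.3% and 65.3% were in cluster 10, and of TA G2M cells 49.4% and 53.2% were in cluster 5. The part of these marker levels in the Cdkn2b and Cdkn2d values was not tested. The effect of class differed between TA cells and goblet progenitors in none of the 9 genes, against 0.0821% of all genes (edgeR interaction, smallest unadjusted p of the 9 genes 0.126).

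**Figure D5:**
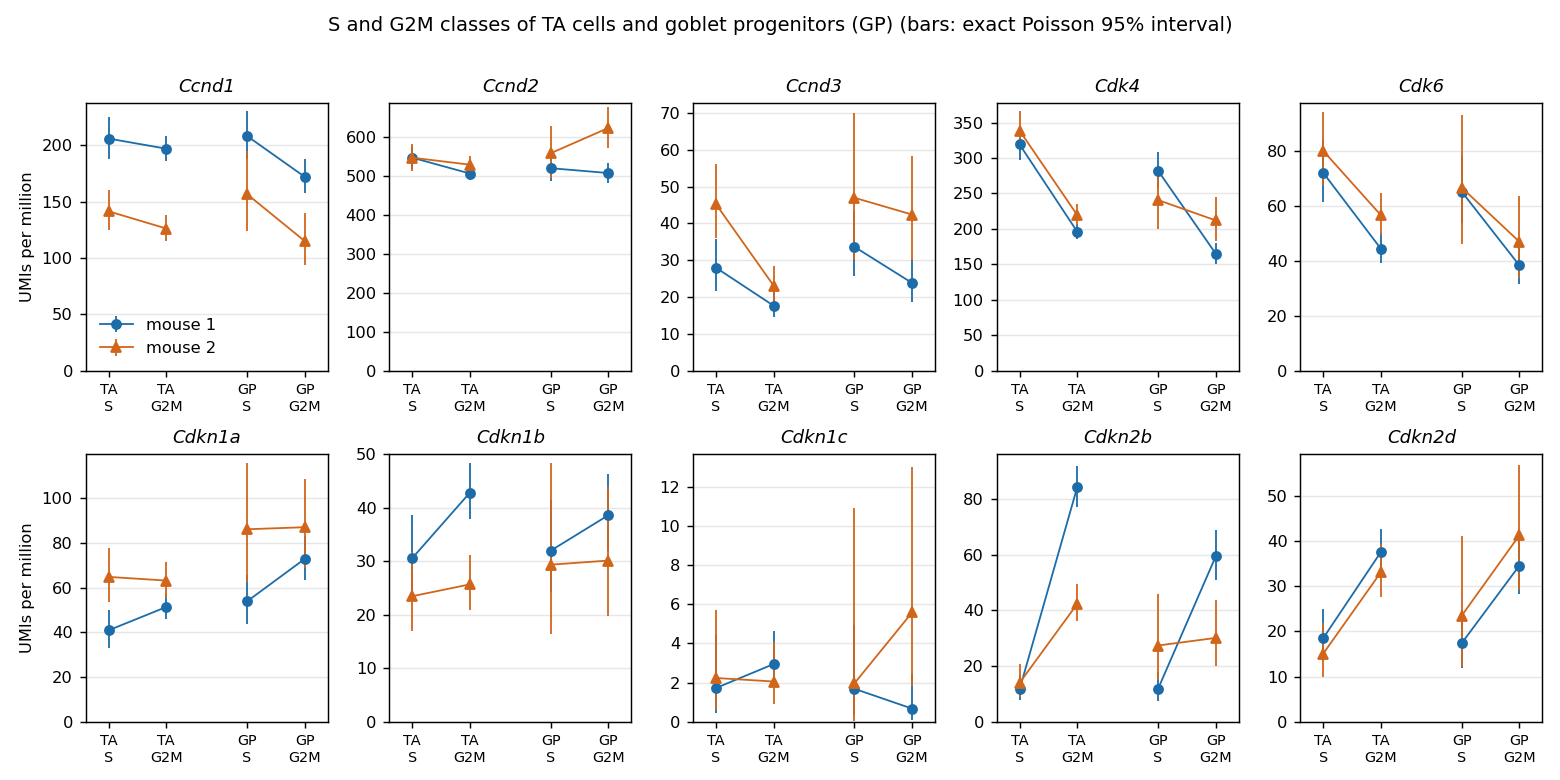
CPM (vertical axis, linear from 0) of the 10 genes in S and G2M classes of TA cells and goblet progenitors (GP), with blue circles for mouse 1, orange triangles for mouse 2 and bars for exact Poisson 95% intervals. Cdk4 and Cdk6 are lower and Cdkn2d is higher in G2M than in S cells in both types and both mice.

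Other genes of the G1 to S transition were read as a list. Of 25 such genes, 24 passed the filter, and 22 of these passed the test for progenitors against mature types, with 21 higher and 1 lower, against 45.4% of all genes passing, 24.4% as higher and 21.0% as lower. Their median log2 fold change was 1.63, beside 0.01 over all genes. The E-type cyclins, which act with CDK2 after the D cyclins, gave the largest values: Ccne1 was higher by 4.19 ± 0.42 and Ccne2 by 3.66 ± 0.53. E2f7, an atypical E2F factor that represses E2F targets, was higher by 3.47 ± 0.59. Rb1, which encodes the retinoblastoma protein, was the one lower gene, at -0.57 ± 0.20 (edgeR adjusted p = 0.0177).

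Of 14 p53 response genes, read because Cdkn1a is one of their kind, 13 were tested and 6 passed, a share near the 45.4% of all genes in the same comparison. Trp53 itself, at 1.45 ± 0.13, and Aen, a nuclease gene, at 0.90 ± 0.16, were higher in progenitors. Btg2 at -2.71 ± 0.26, Trp53inp1 at -1.83 ± 0.28 and Zmat3 at -0.96 ± 0.35 were lower, as Cdkn1a was, and so was Mdm2, which encodes the ubiquitin ligase of p53 and is named here as the one left of the 6, at -0.78 ± 0.17. The median of the list was -0.16, beside 0.01 over all genes.

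Genes with a like profile were sought over the 9 epithelial types among 4671 genes with a mean of at least 20 scaled CPM, by the lower of the Pearson correlations in each mouse. These are descriptions over 9 points that share libraries. Cdk4 was most like Hmgn1 (0.93 in mouse 1, 0.96 in mouse 2), Stmn1 and Rangrf, and Cdk6 was most like Cdca7 (0.90 and 0.88), Axin2 and Ifitm3. Ccnd1 was most like Pstk, Dicer1 and Far2, and Ccnd2 most like Tmsb4x, Rpl22l1 and Rnf186. Ccnd3 was most like Rab3d, Krt18 and Aga, and Cdkn1b most like Pick1, Vim and Tac1. Cdkn1c was most like Cacna1a (0.90 and 0.93), Slc25a4 and Ghrl, the last of which encodes the hormone ghrelin. Cdkn1a was most like Cmip, Rock1 and Kdm7a, Cdkn2b most like Cltc, Slc27a4 and Chuk, and Cdkn2d most like Rad21 (0.76 and 0.80), H2afx and Gip. Within the set, Cdkn1a and Cdkn1c had a correlation of 0.77 and 0.78, Cdkn1b and Cdkn2d one of 0.66 and 0.77, and Cdk4 and Cdkn2b one of -0.73 and -0.77.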

How the data were processed

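Jejunal crypt cells of 2 mice were read with 10x 3′ chemistry. The deposited counts are whole UMIs per gene and barcode, made by the authors with Cell Ranger 3.0.1 on mm10, and the labels also name Seurat 3.2.1. The authors corrected ambient RNA with SoupX (for which file is not stated), removed doublets with scDblFinder, filtered cells on detected genes and mitochondrial UMIs, and named clusters from marker module scores. The deposited percent of mitochondrial UMIs per cell was used for a stricter cell filter. A further 2937 cell columns, of wild-type cells from a different series, were left out.

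Kept cells were joined to the library matrices by barcode. Counts were added up for each type within each mouse (18 epithelial sums, 20 with IEL) and fitted in edgeR 4.0.16 (quasi-likelihood, robust, TMM, filterByExpr) with mouse as a block and Benjamini-Hochberg adjustment. Same-numbered sums come from the same mouse, and the mouse difference of 1 type correlated with that of another at a median of 0.31 over 36 pairs. Cells within a mouse are not replicates, so n was 2 mice. All types in a fit shared 1 spread per gene, with 8 residual degrees of freedom in the epithelial fit. Each SE and p-value thus rests on spread pooled over the types and not on the compared types alone. The fit was tested on simulated data. Intervals are exact Poisson or binomial 95% intervals and cover counting error only. Alternatives were DESeq2 1.42.0, RLE size factors, thinning to 5000 UMIs, at most 10% mitochondrial UMIs, no filter on low counts, no mouse block, leaving out a mouse and, added after seeing the data, leaving out Paneth cells or 1 secretory progenitor cell. Phase calls were not used here; cell cycle classes were assigned from gene lists. The members and gene lists were chosen with earlier results of these data known. All 10 genes were described, and of each further list the 3 largest changes in each direction past the threshold were named for progenitors against mature types. Positions are from GENCODE M21 on mm10, and promoters from RefSeq.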

Additional observations from a re-analysis of the deposited data

How the results depend on the processing

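Of 68 called differences of the 10 genes, 63 kept their direction and call with DESeq2, 67 with RLE size factors, 64 with at most 10% mitochondrial UMIs and 66 with no filter on low counts. Thinning to 5000 UMIs kept 47. Without the mouse block 42 were kept, without Paneth cells 58 of 59, and without 1 secretory progenitor cell 37 of 37. With 1 mouse left there is no test: all 68 kept their direction without mouse 1 and 67 without mouse 2, the exception being Cdk6 in Paneth cells, which ranged from -0.019 to 1.074. Thinning drops shallow cells and most UMIs; no other cause was tested.

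After thinning, 3011 genes and 5 of the 10 members passed for progenitors against mature types, 1674 genes for goblet progenitors against goblet cells, 1361 genes and 2 members for IEL, 374 genes and 2 members for S against G2M, 5 genes for its difference between types, and 14729 pairs of gene and type. Pairs of member and type with a UMI in at least 50% of cells of both mice were 25 before thinning and 15 after. Without the replicate block, the numbers passing were 3260 genes for progenitors, 70 for stem against TA cells, 2843 for TA cells against enterocytes, 1044 genes and 1 member for goblet progenitors, 68 genes and 0 members for S against G2M, 0 genes for its difference, and 13149 pairs of gene and type with 24 pairs of member and type. With no filter on low counts, 834 genes passed for stem against TA cells, 24 for the phase difference and 56 pairs of member and type. DESeq2 called 471 genes for S against G2M and 0 for its difference.

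The sign turned for Cdkn2d in stem cells against other types on thinning (0.14). Values that had not passed turned sign for Cdkn1b (0.23, thinned) and Cdkn2d (-0.075, without Paneth cells) in progenitors, and for Cdkn1c in goblet progenitors (0.005 with DESeq2, 0.63 thinned, 0.047 with the mitochondrial filter). In IEL this held for Ccnd1 (-0.97, thinned) and Ccnd2 (0.059 with DESeq2, 0.03 with RLE, 0.15 thinned). In S against G2M it held for Ccnd2 (-0.003 thinned, and 0 to 3 decimals with no filter) and Cdkn1a (0.033, thinned). Cycling against G1 cells was not run, since too few TA and stem cells fell below both thresholds of the class rule.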
